A study of Rattus norvegicus with 2 samples.

Results

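The insulin-like growth factor family was described as 10 genes in the hypothalamus of female and male rats: the growth factors Igf1 and Igf2, the receptors Igf1r, Igf2r and Insr, and the binding proteins Igfbp2, Igfbp3, Igfbp4, Igfbp5 and Igfbp6. The members were the genes of these names among the 26334 gene and target names on the arrays, and they were carried by 13 probes on 22 of the 42877 non-control spots. All 22 spots were well above background in both pools, and none was saturated or set aside as an outlier spot. The female group was 1 pool of RNA from 5 female rats and the male group 1 pool from 5 male rats, all of the Wistar Kyoto strain and 9 weeks old. Each rat gave 100 ng of RNA from its whole hypothalamus, taken after ether inhalation and decapitation, and 150 ng of each pool was labelled with the dye Cy3 for 1 array. Values of the pool of females and of the pool of males are given below as those of females and males. The stage of the estrous cycle and the hormone levels of the rats are not given in the sources used here. The labels name the sexes as the comparison, with no treatment or genotype besides.

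With 1 array per pool there was no replicate check, and no test or p-value is given. A level is the log2 of a spot's processed signal less the log2 of the 75th percentile of its array, which was 2943 in females and 3769 in males. A difference is the level in females less that in males, and an SD beside it is technical: the SD over the spots of a repeated probe, or that of repeated spots of like level for a gene with few spots. For a mean over probes the SD is that of the mean, combined from its probes, and leaves out the gap between them. Each SD leaves out the spread between rats, labelling reactions and arrays. The number of arrays limits the precision, and levels of different probes cannot be compared. Over all 20664 measured genes the median difference was 0.00012 log2, and the central 95% lay between -0.35 and 0.48 log2. Both arrays lay on 1 slide and came from 1 scan, per the file headers. In 3 bands of rows across the slide 7.47% of repeated spots departed from their probe's other spots by more than 4 robust SD, against 2.40% elsewhere, and 3 member spots lay in these bands. For the tissue label, bright genes of hypothalamic neurons were read. The levels in females and males were 5.27 and 5.54 for the vasopressin gene Avp, 5.34 and 5.21 for the oxytocin gene Oxt, and 1.86 and 1.75 for the orexin gene Hcrt. Other genes of these neurons had lower levels, such as Sim1, named after its values were seen, at -5.40 and -5.55. No other tissue was on the arrays, so these levels have no standard to be set against. As a check of the sex label, chosen after its values were seen, both spots of the X-linked gene Eif2s3x, which escapes X inactivation, were higher in females, by 0.53 and 0.51 log2, the second inside a band.

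Igf1 and Igf2 are secreted growth factors related to insulin. Both signal through the tyrosine kinase receptor encoded by Igf1r and, with different strength, through the insulin receptor encoded by Insr, which act on growth and survival through insulin receptor substrates and the PI3-kinase/Akt pathway. The receptor of Igf2r has no kinase and takes up Igf2 for breakdown, and the binding proteins hold both factors in tissue fluids and govern their access to receptors. In rodent brain Igf1 is made by neurons and glia, whereas Igf2 is an imprinted gene whose RNA is found in the adult mainly in the meninges, choroid plexus and vessels. Igfbp2 is the binding protein best known from choroid plexus, meninges, astrocytes and tanycytes.

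The probes on which the results turn are shown so that the spots of 1 gene can be told apart, in the order in which they are described. Each array probe has 60 bases. Those in protein-coding sequence are printed whole and the others as a stretch of 30 bases, 5′ to 3′, with capitals for the longest run also found in a probe of another gene on the array. That run had 12 to 17 bases over the 13 member probes, and none of them shared its longest run with another family member.
Igf2: tccaaagcTTGGGTTTTGTTTTTaacctgt
Igf1 probe 1: catcggaacACCTGCCAAATATcaataatg
Igf1 probe 2: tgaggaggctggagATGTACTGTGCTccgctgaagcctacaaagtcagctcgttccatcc
Igf1r: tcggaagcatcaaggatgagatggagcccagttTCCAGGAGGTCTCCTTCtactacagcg
Insr probe 1: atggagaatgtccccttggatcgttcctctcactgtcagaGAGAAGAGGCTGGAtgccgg
Insr probe 2: ggattgatgCTTGGTGACTTGGctcatgaa
Igfbp2 probe 1: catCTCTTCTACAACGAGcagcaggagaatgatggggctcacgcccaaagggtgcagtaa
Igfbp2 probe 2: gggaaagaaATTTTTATTTTTGaacccctg

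The files place the Igf2 probe at chr1:202906641-202906700 on the minus strand of the rat genome build rn4. The Igf1 probes lie at chr7:24604715-24604774 and chr7:24587916-24587975, and the Igf1r probe at chr1:122989150-122989209. The Insr probes lie at chr12:3086616-3086675 and chr12:3087540-3087599. The Igfbp2 probes lie at chr9:71993843-71993902, ending at the stop codon, and at chr9:71994131-71994190. The remaining members have 1 probe each, for Igf2r at chr1:42340766-42340825, Igfbp3 at chr14:87959244-87959303, Igfbp4 at chr10:87834213-87834272, Igfbp5 at chr9:72003659-72003718 and Igfbp6 at chr7:140888422-140888481. No annotation of rn4 was used here, so exons are not given.

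Of the 10 members 7 were higher and 3 lower in females, where 50% of all measured genes were higher. Their median difference was 0.15 log2, against 0.00012 log2 over all measured genes. The growth factor gene Igf2 and the binding protein gene Igfbp2 stood 2.04-fold and 1.52-fold higher in females, and no other member was 1.5-fold apart in either direction. Over all measured genes, 1.56% were at least 1.5-fold higher and 0.842% at least 1.5-fold lower in females. These were 322 higher and 174 lower genes, and with levels set on the spike-in controls 227 were higher and 261 lower. With that scaling 6 members were higher in females and only Igf2 was 1.5-fold apart. With the 75th percentile taken over detected spots 8 members were higher, Igfbp4 included at 0.0066 log2. Both of the members past 1.5-fold had a spot inside a band, and without the bands none of the 9 members that still had a value was 1.5-fold apart.

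**Figure D1:**
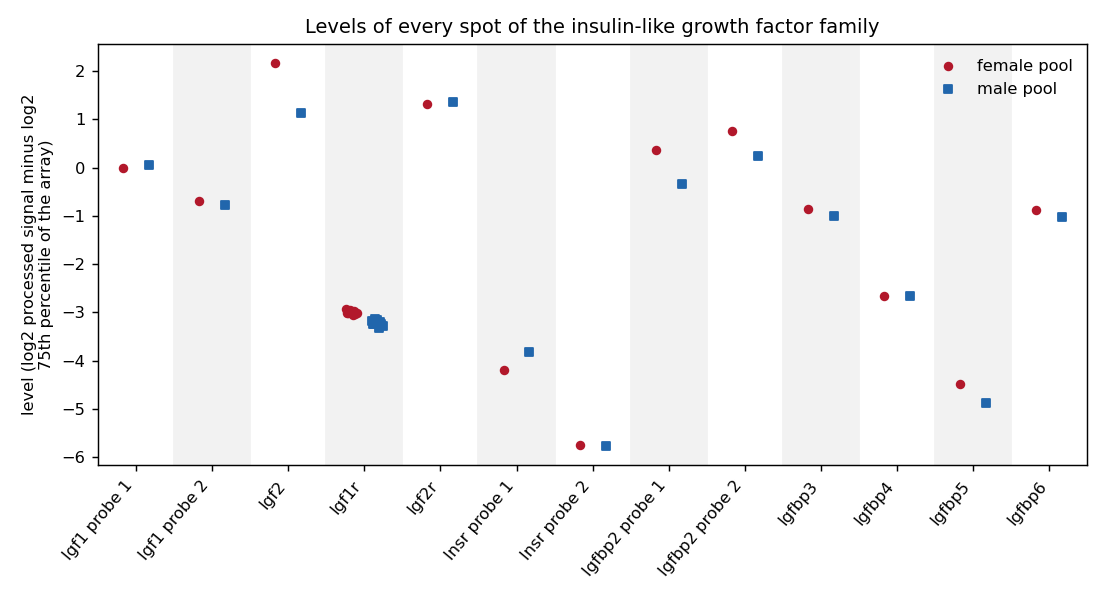
Level of each of the 22 spots of the 10 family genes in females (red circles) and males (blue squares), as log2 processed signal less the log2 75th percentile of the array. The female value of Igf2 lies near 2.16 against 1.13 in males, both Igfbp2 probes are higher in females, and levels of different probes cannot be compared.

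Among the ligands, Igf2 differed most. Its single spot had a processed signal of 13174 in females and 8273 in males. The male array was the brighter one by its 75th percentile, so the levels stood further apart than the signals, at 2.16 in females and 1.13 in males, a difference of 1.03 ± 0.070 log2 (technical SD, 1 spot). This exceeded the technical SD and placed Igf2 at percentile 99.52 of all measured genes, in a set of 0.508% of genes that were at least 2-fold higher in females.

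The Igf2 spot lay in row 113, inside a band, so the pixels and the surroundings of the spot were examined. Before background correction the mean over its pixels was 13092 in females and 7848 in males, and the median over its pixels was 12586 in females and 7616 in males. The pixel mean and median of each pool thus lay close together. The 20 nearest spots of repeated probes departed from their probes' median by -0.082 to 0.082 log2. The median departure was -0.0022 log2, and all were far smaller than the difference of Igf2. There was no second spot of Igf2 on the array, and without the bands Igf2 had no value. The summed signal of markers of meninges and fibroblasts, described below with the other cell types, was higher in females, at 7.97 against 4.56 in males. Its part in the values of Igf2 and Igfbp2 was not tested. That marker list holds genes known to be high in females from earlier work on these arrays, so its direction is no independent evidence.

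Igf1, the growth factor that growth hormone induces in many tissues, was near equal in the pools. Probe 1 had a processed signal of 2929 in females and 3905 in males, with levels of -0.0072 and 0.051, a difference of -0.059 ± 0.045 log2. Probe 2 had 1812 in females and 2199 in males, with levels of -0.70 and -0.78, a difference of 0.077 ± 0.050 log2. The 2 probes pointed in opposite directions, each by more than 1 and less than 2 of its technical SD. Their mean was 0.0093 ± 0.034 log2, below the technical SD, and its sign was negative in 5 of the 14 alternatives, among them the spike-in scaling.

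Among the receptors, Igf1r had by far the most repeated measurement in the family, 1 probe on 10 spots, all outside the bands. The 10 spots had processed signals of 353.0 to 387.7 in females and 377.3 to 428.0 in males. Their levels lay between -3.06 and -2.92 in females and between -3.32 and -3.14 in males, and at this scaling the 2 ranges did not overlap. The difference was positive at each spot, from 0.19 to 0.28 log2, with a mean of 0.22 ± 0.029 log2 (SD, 10 spots). This corresponds to 1.17-fold, percentile 89.02 of all measured genes. The difference exceeded the spread between spots of this array pair. Under the spike-in scaling it was 0.13 log2, still above 0. That scaling moved differences by -0.098 log2, more than the gap between the 2 ranges, so under it they overlapped. The 10 spots are repeats on 1 array per pool and not replicates of the pools.

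**Figure D2:**
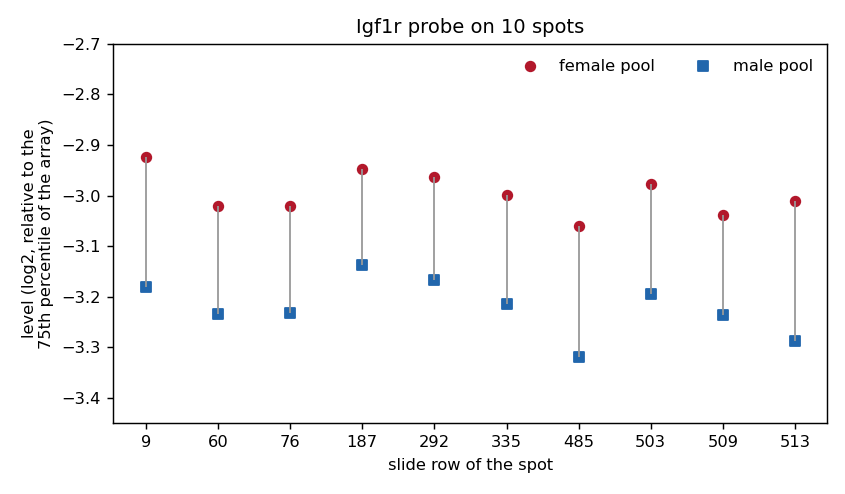
Level of the Igf1r probe at its 10 spots (x axis, slide row), in females (red circles) and males (blue squares), with a grey line joining the values of a spot. Every female value lies between -3.06 and -2.92 and every male value between -3.32 and -3.14. These ranges do not overlap at the scaling shown, but they overlap under the spike-in scaling. The spots repeat the same probe within the array of each pool and are not replicates of the pools.

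Igf2r, the receptor that clears Igf2, had a processed signal of 7344 in females and 9637 in males. Its levels were 1.32 in females and 1.35 in males, a difference of -0.035 ± 0.046 log2 that lay within the technical SD.

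Insr, the insulin receptor gene, gave discordant values on dim probes. Probe 1, on a spot inside a band, had a processed signal of 160.1 in females and 268.6 in males, a difference of -0.39 ± 0.13 log2. Probe 2, outside the bands, had 54.8 in females and 68.9 in males, a difference of 0.027 ± 0.18 log2. The mean of both probes was -0.18 ± 0.11 log2, 1.13-fold higher in males. The 20 repeated spots nearest to probe 1 departed by -0.93 to 0.038 log2, with a median of -0.0072 log2. Without the bands, which leave probe 2 alone, the value of Insr was 0.027 log2.

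Igfbp2 was the binding protein gene furthest apart, and the only one with a value of 1.5-fold or more. Probe 1, inside a band, had a processed signal of 3777 in females and 2994 in males, with levels of 0.36 and -0.33, a difference of 0.69 ± 0.073 log2. Probe 2, in row 494 outside the bands, had 4960 in females and 4429 in males, with levels of 0.75 and 0.23, a difference of 0.52 ± 0.044 log2. The probes thus pointed the same way, each by more than its technical SD.

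The mean over both Igfbp2 probes was 0.61 ± 0.043 log2, at percentile 98.56 of all measured genes. Probe 1 alone corresponded to 1.61-fold and probe 2 alone to 1.43-fold, so the value passed 1.5-fold only through the spot inside the band. The 20 repeated spots nearest to probe 1 departed by -0.44 to 0.039 log2 and those nearest to probe 2 by -0.091 to 0.11 log2. Both differences lay above these ranges.

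**Figure D3:**
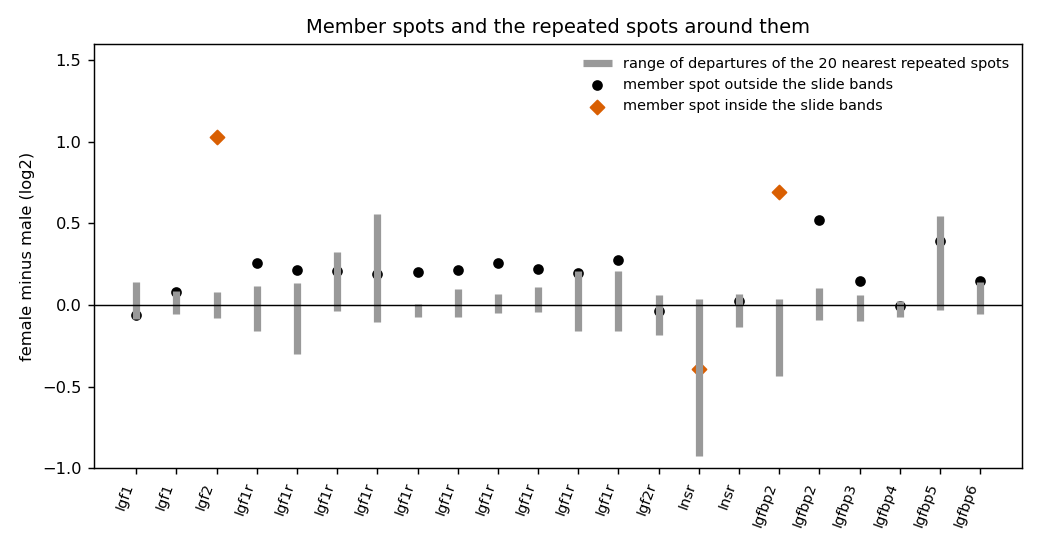
Difference between females and males (log2) at each of the 22 member spots, with black points outside and orange diamonds inside the slide bands. Grey bars give the range by which the 20 nearest repeated spots departed from their probes' median. The spots of Igf2 and of both Igfbp2 probes lie above the bars around them, whereas Insr probe 1 and Igfbp5 lie within theirs.

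Igfbp5, which binds to extracellular matrix and has its probe 9.82 kb from the first Igfbp2 probe on the opposite strand (rn4), was the next of the binding proteins. Its spot was dim, with a processed signal of 131.7 in females and 128.6 in males. The levels were -4.48 in females and -4.87 in males, a difference of 0.39 ± 0.18 log2, or 1.31-fold. This was about 2 technical SD, and the 20 nearest repeated spots departed by -0.030 to 0.55 log2, a range that held the difference.

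Igfbp3, the main carrier of the growth factors in blood, and Igfbp6, which prefers Igf2, differed by small and like amounts. Igfbp3 had a processed signal of 1634 in females and 1889 in males, and Igfbp6 had 1594 in females and 1844 in males. Both differed by 0.15 ± 0.052 log2 in favour of females, a fold of 1.11. Under the spike-in scaling both were at about 0.048 log2, below the technical SD. Igfbp4, an inhibitory binding protein that the protease Pappa cleaves, had 465.2 in females and 596.9 in males, a difference of -0.0031 ± 0.058 log2. No direction can be given for Igfbp4 at this precision.

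**Figure D4:**
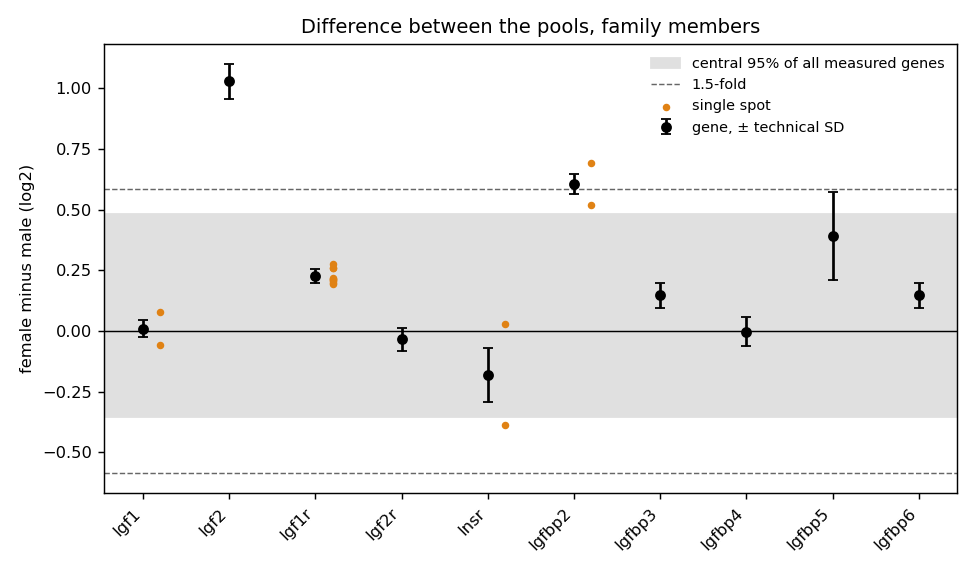
Difference between females and males (log2) of each family gene, as black points with the technical SD as error bars, and of single spots in orange where a gene has more than 1. Igf2 at 1.03 and Igfbp2 at 0.61 lie above the dashed line for 1.5-fold, and the other 8 genes lie between the dashed lines.

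Neighbours of the members were set beside them by the positions of their probes in rn4. The probe of H19, an imprinted noncoding RNA gene next to Igf2, lay 83.7 kb from that of Igf2. H19 had a processed signal of 46.0 in females and 29.9 in males, a dim spot outside the bands, with a difference of 0.98 ± 0.18 log2. The 20 repeated spots nearest to it departed by -0.17 to 0.057 log2. With another background correction, normexp, chosen after seeing the data in the form used, the difference of H19 was 0.59 log2. The insulin gene Ins2, with its probe 29.6 kb on the other side of Igf2, differed by -0.20 ± 0.18 log2. Its spot was also dim, with levels of -6.04 in females and -5.84 in males, and its difference barely exceeded the technical SD. Ins2 was thus not higher in females as H19 was, and no direction can be given for it. Igfbp1 lay 4.51 kb from Igfbp3 and differed by -0.18 ± 0.058 log2, against 0.15 log2 for Igfbp3.

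The sequence before the starts of Igf2 and Igfbp2 is shown because these were the members past 1.5-fold. RefSeq, on the rat build GRCr8, gave 11 windows of 250 bases before a start for the 10 members. They were searched on both strands for the letters GGGCGG, known as a GC box, and for TATAAA, known as a TATA box. The 2 motifs cannot overlap. Capitals mark a match. The first Igf2 window is chr1:207250476-207250725 and the second chr1:207253981-207254230, both on the minus strand, and the Igfbp2 window is chr9:81864561-81864810 on the plus strand.
Igf2 window 1: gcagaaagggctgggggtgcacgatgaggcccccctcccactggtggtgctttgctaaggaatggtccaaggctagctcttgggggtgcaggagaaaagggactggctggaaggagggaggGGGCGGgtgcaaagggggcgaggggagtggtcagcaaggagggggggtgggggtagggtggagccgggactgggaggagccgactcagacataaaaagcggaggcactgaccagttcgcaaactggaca
Igf2 window 2: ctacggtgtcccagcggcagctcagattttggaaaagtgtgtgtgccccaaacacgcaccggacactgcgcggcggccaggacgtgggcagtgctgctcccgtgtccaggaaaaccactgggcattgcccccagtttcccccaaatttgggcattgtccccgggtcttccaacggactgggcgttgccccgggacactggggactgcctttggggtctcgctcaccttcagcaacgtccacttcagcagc
Igfbp2: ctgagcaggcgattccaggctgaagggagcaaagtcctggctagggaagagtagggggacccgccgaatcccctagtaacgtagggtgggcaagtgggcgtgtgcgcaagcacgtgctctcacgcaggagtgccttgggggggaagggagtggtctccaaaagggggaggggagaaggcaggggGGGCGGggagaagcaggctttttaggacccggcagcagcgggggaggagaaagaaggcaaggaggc
The first Igf2 window and the Igfbp2 window held 1 GC box each, and the second Igf2 window held neither motif. Over the 11 windows 4 held a GC box, those of Igf1r and Igf2r with the 2 named, and 1, that of Igfbp4, held a TATA box. Of all 33469 promoter windows 30.5% held a GC box and 12.9% a TATA box. A match is a description of the letters and says nothing of a factor's binding.

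The other genes of the pathway were read from lists chosen with earlier results of these arrays known. Among other ligands and binding proteins 3 of 6 measured genes were higher in females, with a median of -0.071 log2. The insulin gene Ins1, on 10 spots, differed by 0.31 ± 0.055 log2 and Igfals, the acid-labile subunit that joins the carrier complex in blood, by 0.22 ± 0.18 log2. Igfbp7, a related secreted protein of vessels, differed by -0.25 ± 0.058 log2. The third higher gene, Igfbpl1, and the lower genes Ins2 and Igfbp1 were named after their values were seen, and Igfbpl1 was at 0.035 log2. None of these reached 1.5-fold. With normexp 4 of 6 were higher and the median was 0.072 log2. Ins1 and Ins2 are near-identical copies, so their probes may share signal.

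Among the proteases that cut binding proteins and their regulators, 3 of 5 measured genes were higher in females, with a median of 0.0064 log2. Pappa, which cleaves Igfbp4 and other binding proteins, differed by 0.51 ± 0.26 log2 on 1 spot inside a band. Adam12, a metalloprotease that cleaves Igfbp3 and Igfbp5, differed by -0.37 ± 0.18 log2, and the insulin-degrading enzyme gene Ide by -0.045 ± 0.052 log2. The inhibitor gene Stc1 and the protease gene Htra1, named after their values were seen, were at 0.024 and 0.0064 log2. Scaled on the spike-ins, 1 of 5 was higher, with a median of -0.092 log2. Stc2 did not pass the background flag in females or males.

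Among receptor adaptors and genes of PI3-kinase/Akt signalling, 17 of 28 measured genes were higher in females, with a median of 0.062 log2. Only Tsc1, which restrains mTOR downstream of Akt, was 1.5-fold apart, with a difference of 2.73 ± 0.13 log2. That value came from 1 spot inside a band, with a processed signal of 545.8 in females and 105.2 in males. The repeated spots nearest to the Tsc1 spot departed by -0.32 to 0.54 log2. Pdpk1, the kinase that activates Akt, differed by 0.32 ± 0.050 log2, and the adaptor gene Shc1 by 0.28 ± 0.10 log2. Without the bands 13 of 22 genes were higher and none was at least 1.5-fold higher. Under the spike-in scaling 12 of 28 were higher and the median was -0.037 log2, so the list has no direction that holds under each scaling.

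The list of Igf2 mRNA-binding proteins and imprinted growth genes stood further from the median of all genes. Of 9 measured genes 8 were higher in females, and 3 passed 1.5-fold. The median was 0.17 log2. The 3 were H19, Phlda2, a growth-restraining gene of placenta, and Cdkn1c, an inhibitor of cyclin-dependent kinases. The lower one was Igf2bp2, named after its values were seen, at -0.11 ± 0.083 log2. Under the spike-in scaling 6 of the 9 were higher and 2 were at least 1.5-fold higher. With normexp 8 of the 9 were higher and 1 was at least 1.5-fold higher.

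Phlda2 differed by 0.70 ± 0.18 log2 on a dim spot with a processed signal of 36.9 in females and 29.1 in males. A second Phlda2 probe was not well above background in females and differed by -1.72 log2, and with both probes used Phlda2 was at -0.51 log2. Cdkn1c was brighter, with a difference of 0.51 log2 on a spot outside the bands and 0.67 log2 on a spot inside one, or 0.59 ± 0.059 log2 over both. Without the bands Cdkn1c was at 1.43-fold or 0.51 log2, and H19 and Phlda2 were the 2 of 7 genes still at least 1.5-fold higher.

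Growth hormone signalling, which induces Igf1, was near even: 5 of 7 genes were higher in females, with a median of 0.067 log2 and none 1.5-fold apart. Socs3, an inhibitor of cytokine receptors, differed by 0.16 ± 0.18 log2. The transcription factor genes Stat5a and Stat5b, which act on the Igf1 gene, differed by 0.11 ± 0.073 and 0.098 ± 0.081 log2. The lower genes Socs2 and Cish, named after their values were seen, were both at about -0.05 log2. Under the spike-in scaling 3 of 7 genes were higher, with a median of -0.032 log2, and with normexp all 7 were higher, with a median of 0.12 log2.

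Markers of the cell types that a dissected hypothalamus can hold were set beside these values. In a bulk sample, fewer cells of a type and less RNA per cell cannot be told apart. Of 18 measured markers of meninges and fibroblasts, a list that holds genes known to be high in females from earlier work on these arrays and so is no independent evidence of its direction, all 18 were higher in females. Of these, 14 passed 1.5-fold, and the median was 0.91 log2. The summed signal of the list, relative to each array's 75th percentile, was 7.97 in females and 4.56 in males. Such a sum is weighted to the brightest probes of a list. Aldh1a2, which makes retinoic acid in meninges, differed by 1.92 ± 0.26 log2 on 1 spot inside a band, and the homeobox gene Prrx2 by 1.47 ± 0.14 log2 on 9 spots. Without the bands all 13 markers with a value were higher, 9 of them past 1.5-fold, and the median was 0.88 log2. Osr1 was well above background in females and not in males, with processed signals of 45.9 in females and 10.5 in males, at least 3.91-fold higher. Such a bound takes, for the dimmer array, the smallest level that passed the background flag there. Foxd1 had no value.

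Of 11 measured markers of choroid plexus 7 were higher in females, with a median of 0.12 log2 and a summed relative signal of 6.43 in females and 5.45 in males. The potassium channel gene Kcnj13 differed by 2.22 ± 0.26 log2 and the transthyretin gene Ttr by 0.98 ± 0.091 log2, each on 1 spot inside a band. The gap between the sums came mainly from the single Ttr spot, at levels of 1.09 in females and 0.11 in males. Enpp2, with the highest signal of the list and named after its values were seen, was at 1.85 in females and 1.90 in males. Without the bands 4 of 6 markers were higher and none was at least 1.5-fold higher, with a median of 0.10 log2. Slc13a4 was well above background in females and not in males, with processed signals of 33.6 in females and 12.9 in males, at least 2.86-fold higher, and Cldn2 was so in neither pool. Blood cell markers ran the other way, with 9 of 10 lower in females, a median of -0.38 log2 and a summed relative signal of 32.9 in females and 39.2 in males. The hemoglobin genes Hba1 and Hbb made up most of that sum, with levels of 4.47 and 3.32 in females and 4.69 and 3.63 in males. S100a8, of neutrophils, differed by -1.27 ± 0.26 log2 on 1 spot inside a band and Ahsp, of red cells, by -0.57 ± 0.050 log2. The part of choroid plexus and of blood in the members' values was not tested.

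**Figure D5:**
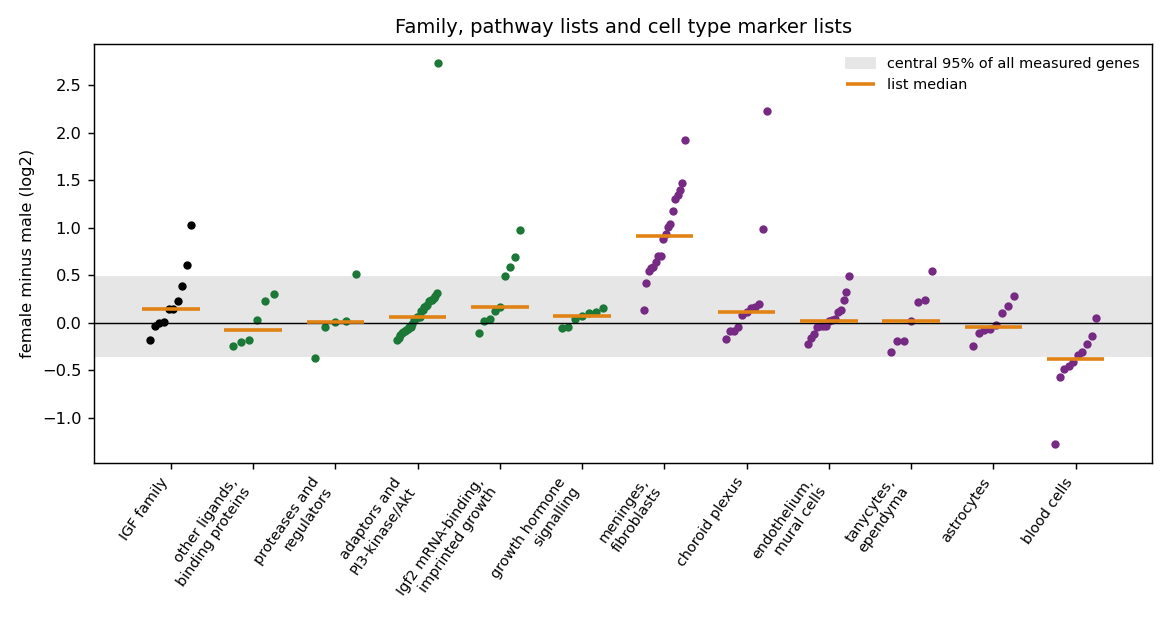
Difference between females and males (log2) of each measured gene of the insulin-like growth factor family (black), the pathway lists (green) and 6 of the marker lists (purple), with an orange line at each list's median and grey for the central 95% of all measured genes. The family median is 0.15, all 18 markers of meninges and fibroblasts lie above 0, and 9 of 10 blood markers lie below 0.

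The lists of glial and vascular cells that also express members of the family were nearer to 0. Astrocyte markers had a median of -0.048 log2 and a summed relative signal of 66.3 in females and 67.6 in males, with 0.29 ± 0.10 log2 for Sox9 and -0.24 ± 0.073 log2 for Gfap. Aldoc, with a level of 5.67 in females and 5.70 in males, made up most of that sum. Tanycytes and ependyma had a median of 0.015 log2, with sums of 2.08 in females and 1.93 in males, and 0.54 ± 0.081 log2 for Col25a1 and -0.31 ± 0.26 log2 for Rax, the spot of Rax in a band. Endothelium and mural cells had a median of 0.015 log2 and sums of 6.41 in females and 6.58 in males, with 8 of 15 genes higher. Abcc9 was at 0.50 ± 0.11 log2 on 1 spot inside a band and at -0.19 log2 with its probes near background included, and Des was at 0.32 ± 0.081 log2. Kcnj8, the lowest of the list and named after its values were seen, was at -0.22 ± 0.052 log2. Scaled on the spike-ins, 5 of 15 were higher, and the medians of this list and of tanycytes and ependyma were -0.084 and -0.083 log2. None of these 3 lists had a gene at least 1.5-fold apart.

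Among the remaining lists, 6 of 8 microglia and macrophage markers were higher in females, with a median of 0.063 log2, with Cd68 at 0.59 ± 0.081 log2 and Cx3cr1 at 0.46 ± 0.044 log2. The lower genes Itgam and Csf1r, named after their values were seen, were at -0.32 ± 0.081 and -0.0016 ± 0.049 log2. Scaled on the spike-ins, 3 of these 8 were higher, with a median of -0.035 log2. Of 8 oligodendrocyte markers 6 were lower in females, with a median of -0.075 log2, and Cldn11 was at -0.21 ± 0.045 log2. Markers of hypothalamic neurons had a median of 0.082 log2, and of -0.016 log2 under the spike-in scaling, with Crh at 0.41 ± 0.036 log2 and Ghrh, which drives growth hormone release, at -0.36 ± 0.050 log2. Of 6 measured pituitary markers 4 were lower in females, with Tshb at -2.05 ± 0.058 log2 and Cga at -0.72 ± 0.091 log2, the spot of Cga in a band. Fshb and Pitx1, named after their values were seen, were higher, at 0.18 and 0.092 log2. The pituitary median was -0.24 log2, but -0.022 log2 without the bands and 0.0059 log2 with no filter on dim probes. Prl was well above background in females and not in males, with processed signals of 55.7 in females and 4.26 in males, at least 4.74-fold higher, and Gh1 was so in neither pool. The part of these cell types in the members' values was not tested.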

How the data were processed

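The deposited scanner files gave a fluorescence intensity for each spot of 1-colour Agilent rat arrays. Per the file headers, the processed intensity was the spot's signal after background subtraction and spatial detrending by Feature Extraction 10.7.3.1, with the build rn4. The submitters' processing notes name version 9.1, and which of these made the values was not settled. Flags for background, saturation and outlier spots are other values deposited in the same files. The authors' deposited value table held 36348 spots as processed signal divided by the array's 75th percentile, times 100, by comparison with the scanner files, on a linear scale with no centring and medians of 29.5 (female pool) and 29.0 (male pool).

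Outlier spots (487 of the non-control spots in either pool) were left out. Spots of a probe and then probes of a gene were averaged, and a probe counted as measured when more than 50% of its spots passed the background flag in each pool. That flag was set for 84.2% of spots of the female pool and for 84.9% of the male pool. The technical SD came from 12682 spots of 1310 repeated probes, in 10 bins of level and separately inside the bands. The scripts were tested on simulated data. Python 3.11.15, pandas 2.3.3, R 4.3.3 and limma 3.58.1 (normexp, offset 50) were used. Gene names are those of the files, and the accessions of all 13 member probes gave the same symbol in RefSeq. The bands, the members, the lists and the named genes (all members, in each other pathway list the 3 furthest from 0 and any at least 1.5-fold apart, in each marker list the 2 furthest from 0) were chosen with earlier results of these data known. Of 14 alternatives 3 were chosen after seeing the data. The value of 1 gene that the rule names is not reported here.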

Additional observations from a re-analysis of the deposited data

How the results depend on the processing

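Over 14 alternatives the difference of Igf2 lay between 0.93 and 1.10 log2, and it had no value without the bands. It was at least 1.5-fold in the 13 that gave a value. Igf2 has a single unflagged spot, so alternatives that only change the filter, outlier spots, averaging or probe names could not move its value. The deposited table held the same signal rescaled. These alternatives are therefore no separate evidence for Igf2. Igfbp2 lay between 0.51 and 0.63 log2 and was at least 1.5-fold in 11 of 14. Igf1r (0.13 to 0.24 log2), Igfbp3 (0.049 to 0.18), Igfbp5 (0.26 to 0.40) and Igfbp6 (0.048 to 0.16) were above 0 in all 14. For the single spots of Igfbp3, Igfbp5 and Igfbp6 the same alternatives could not move the value, nor could leaving out the bands. Igf1, Igf2r, Igfbp4 and Insr were above 0 in 9, 2, 2 and 1 of them. With the spike-in scaling, which moved the median of all genes by -0.098 log2, the family median was 0.048 log2 and 1 member was 1.5-fold apart. With the brightest probe per gene 1 member was, and without the bands 0 were. Counts over all genes that moved by over 1.5 times were 1201 higher and 878 lower with no filter on dim probes, 150 higher and 42 lower without the bands, 174 higher and 36 lower with normexp, and 104 lower with pixel medians. Without the bands 14878 genes were tested in place of 20664. The shares were then 1.01% higher and 0.282% lower, against 1.56% and 0.842% with the bands kept. The cause of these moves was not tested. Phlda2 was at -0.51 log2 with no filter. Normexp and pixel medians were chosen in this form after seeing the data, with a correction by the 20 nearest repeated spots. The planned normexp on all spots was not kept, since 2 spots of the male array with local background far above their signal set its fit and moved the median of all genes to -0.55 log2. Over the alternatives 830 other values were recomputed, and 31 of them changed sign, 10 of members, 6 of other named genes and 15 of list medians, 7 of these medians under the spike-in scaling. Phlda2 was the only sign change from a value past 1.5-fold. Dim spots limit Insr, Igfbp5, H19, Phlda2, Ins2, Igfals and Kcnj13, among others. No paired analysis was possible because each pool was measured on 1 array.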
